A study of Mus musculus with 8 samples.

Results

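The 10 genes followed here act in bile acid synthesis and its control by the farnesoid X receptor (FXR), and were measured in mouse liver with and without Arid1a in hepatocytes. They are Cyp7a1, Cyp8b1, Cyp27a1, Cyp7b1, Cyp2c70, Hsd3b7, Akr1d1, Baat, Nr1h4 and Nr0b2. They were taken by gene symbol from a table of 35638 genes, and all 10 were found. The Arid1a protein binds DNA as part of the SWI/SNF complex, which remodels chromatin. RNA was sequenced from frozen livers of mice of a mixed C57/B6 and 129 strain background at postnatal day 90. The 4 WT libraries came from Arid1a Fl/Fl mice, whose Arid1a alleles carry loxP sites, and the 4 KO libraries from Arid1a Fl/Fl; Alb-cre mice, in which the albumin promoter drives Cre recombinase in hepatocytes. The floxed alleles are therefore common to both groups, and no group carries Alb-cre alone. Arid1a was not measured by cell type, and cells of the liver that make no Cre are in the samples too. The labels do not tie each replicate to an animal of its own, so the p-values cover only the spread among these samples, and that spread may be technical.

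The liver makes bile acids from cholesterol. In the classical pathway Cyp7a1 catalyses the first and rate-limiting step, and Cyp8b1 then directs the intermediate to cholic acid. In the alternative pathway Cyp27a1 oxidises the side chain first and Cyp7b1 hydroxylates the resulting oxysterol. Hsd3b7 and Akr1d1 modify the sterol ring in both routes, Cyp2c70 makes the muricholic acids that are typical of mouse bile, and Baat joins the acids to taurine or glycine. Bile acids bind FXR, the product of Nr1h4, which induces Nr0b2. Nr0b2 encodes SHP, a nuclear receptor without a DNA-binding domain that lowers transcription of Cyp7a1 and Cyp8b1, and NR5A2 and HNF4A are the factors on those promoters that SHP acts through.

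The promoters that carry the sequences named in this circuit are shown first. Cyp8b1 and Nr0b2 were chosen because each had 1 library far from the rest of its group, and Cyp2c70 because its window holds a sequence that is also in that of Cyp8b1. RefSeq windows of the 250 bases before the start of transcription (build GRCm38.p6) matched 7 of the 10 genes. They were searched on both strands for TCAAGG (the core of NR5A2 sites), CAAAGTCCA (a form of the HNF4A site), the FXR inverted repeat (AGGTCA, any 1 base, TGACCT), TTATGTAA (the D-box bound by DBP and NFIL3) and TATAAA (the TATA box), none of which overlaps another. Capitals mark the matches, and each line runs 5′ to 3′ on the strand of its gene. The Cyp8b1 window is chr9:121916306-121916555 (minus strand), that of Cyp2c70 chr19:40187287-40187536 (minus strand) and that of Nr0b2 chr4:133553126-133553375 (plus strand).
Cyp8b1: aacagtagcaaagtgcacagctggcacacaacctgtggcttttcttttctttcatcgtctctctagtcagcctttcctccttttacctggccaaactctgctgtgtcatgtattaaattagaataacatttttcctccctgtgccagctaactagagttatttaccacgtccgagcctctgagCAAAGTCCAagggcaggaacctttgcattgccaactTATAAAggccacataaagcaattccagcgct
Cyp2c70: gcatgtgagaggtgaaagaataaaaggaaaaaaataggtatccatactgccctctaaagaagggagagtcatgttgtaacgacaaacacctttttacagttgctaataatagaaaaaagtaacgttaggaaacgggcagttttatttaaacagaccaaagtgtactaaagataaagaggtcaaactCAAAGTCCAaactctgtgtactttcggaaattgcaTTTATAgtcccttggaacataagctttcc
Nr0b2: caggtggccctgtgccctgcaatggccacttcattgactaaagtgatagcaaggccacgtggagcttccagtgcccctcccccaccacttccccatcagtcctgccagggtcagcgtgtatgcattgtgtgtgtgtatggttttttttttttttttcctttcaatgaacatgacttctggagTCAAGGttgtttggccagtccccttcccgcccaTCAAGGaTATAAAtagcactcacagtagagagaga
Cyp8b1 and Cyp2c70 each hold CAAAGTCCA on the strand of the gene, from base -67 to -59 and from base -64 to -56 before the start. This sequence lies in 0.384% of 32851 RefSeq windows of the same length. TCAAGG occurs in the Nr0b2 window from base -68 to -63 and from base -35 to -30, and in 12.5% of all windows. In the Cyp2c70 window the capitals TTTATA are the TATA box sequence read on the opposite strand. Positions are counted from the RefSeq start. The end of the Cyp2c70 window, with TTTATA, lies inside the gene span given below, so the annotations place its start differently. The Akr1d1 window holds 1 TCAAGG on the opposite strand, and the windows of Cyp27a1, Hsd3b7 and Nr1h4 hold no match. The Nr1h4 window, chr10:89506659-89506908 (minus strand), lies inside the gene span given below. The bases before the 5′ end of that span were therefore not searched. The FXR inverted repeat and TTATGTAA were not found in these 7 windows. They lie in only 0.00609% and 0.819% of all windows, so their absence from 7 says nothing about these genes. Only the exact sequences were searched, and other forms of an FXR site, or sites further away, would be missed. A match describes the letters only. Cyp7a1, Cyp7b1 and Baat have no window printed here.

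All values are FPKM, fragments scaled to gene length and to the reads of the library, as the authors deposited them. Changes are differences of log2(FPKM + 1), KO minus WT, from limma fitted to the 11266 genes with a mean of at least 1 FPKM, with Benjamini-Hochberg adjustment over all of them. Depth, estimated from the steps between low values, was about 12400000 to 15200000 reads per library. Arid1a, which checks the labels, was at 5.16, 8.38, 3.998 and 4.10 FPKM in WT 1 to 4 and ranged from 2.59 to 3.46 FPKM in the KO libraries, so the groups did not overlap (exact two-sided permutation p = 0.0286, which no split of the 70 possible can undercut). In the fit over all genes its change was -0.67 ± 0.23 (SE) and did not pass (limma adjusted p = 0.316). The values cover the whole gene. Defining hepatocyte markers were abundant in every library, with 7 genes summing to 28114 to 38681 FPKM in the WT and 31346 to 45429 FPKM in the KO libraries. The summed level of 8 macrophage markers was 4.67 to 8.13 FPKM in the WT and 12.4 to 98.8 FPKM in the KO libraries, of 7 endothelial markers 1.77 to 4.83 and 5.83 to 17.0 FPKM, and of 7 stellate cell markers 1.93 to 6.09 and 9.14 to 22.4 FPKM. The part of these cells in the results below was not tested, and fewer cells of a type and less RNA per cell cannot be told apart. The 8 cholangiocyte markers summed to 1.65 to 2.18 FPKM in the WT and 2.04 to 8.19 FPKM in the KO libraries. Spp1 alone reached 6.72 FPKM in KO 3, against at most 0.658 FPKM in the WT libraries. Sox9 was at 0.134 to 0.462 FPKM in the WT and 0.0157 to 0.123 FPKM in the KO libraries. Krt19, Krt7, Epcam and Cftr were at 0 in the 4 WT libraries. All 8 libraries held Xist, at 53.5 to 95.6 FPKM, and at most 0.0527 FPKM of the Y-linked gene Ddx3y.

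None of the 10 genes passed the adjusted threshold of 0.05 between WT and KO (0 higher, 0 lower), against 0.763% of all genes tested. At an unadjusted limma p under 0.05 there were 4 (Cyp7b1, Cyp2c70, Akr1d1 and Nr1h4), against 9.81% of all genes. The change was negative for 8 and positive for 2 of the 10, against 6137 negative and 5129 positive among the 11266 genes tested. The median was -0.42 for the 10 against -0.03 over all genes. Only Cyp7b1 had groups that did not overlap, the KO libraries being the 4 lowest, against 3.18% of all genes lower and 3.05% higher in this way. Cyp7b1 passed the minimum mean of 1 FPKM only through its WT libraries, so its place in these counts is a description only. The values of the single genes show that WT 4 and KO 1 stood apart in several of them.

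**Figure D1:**
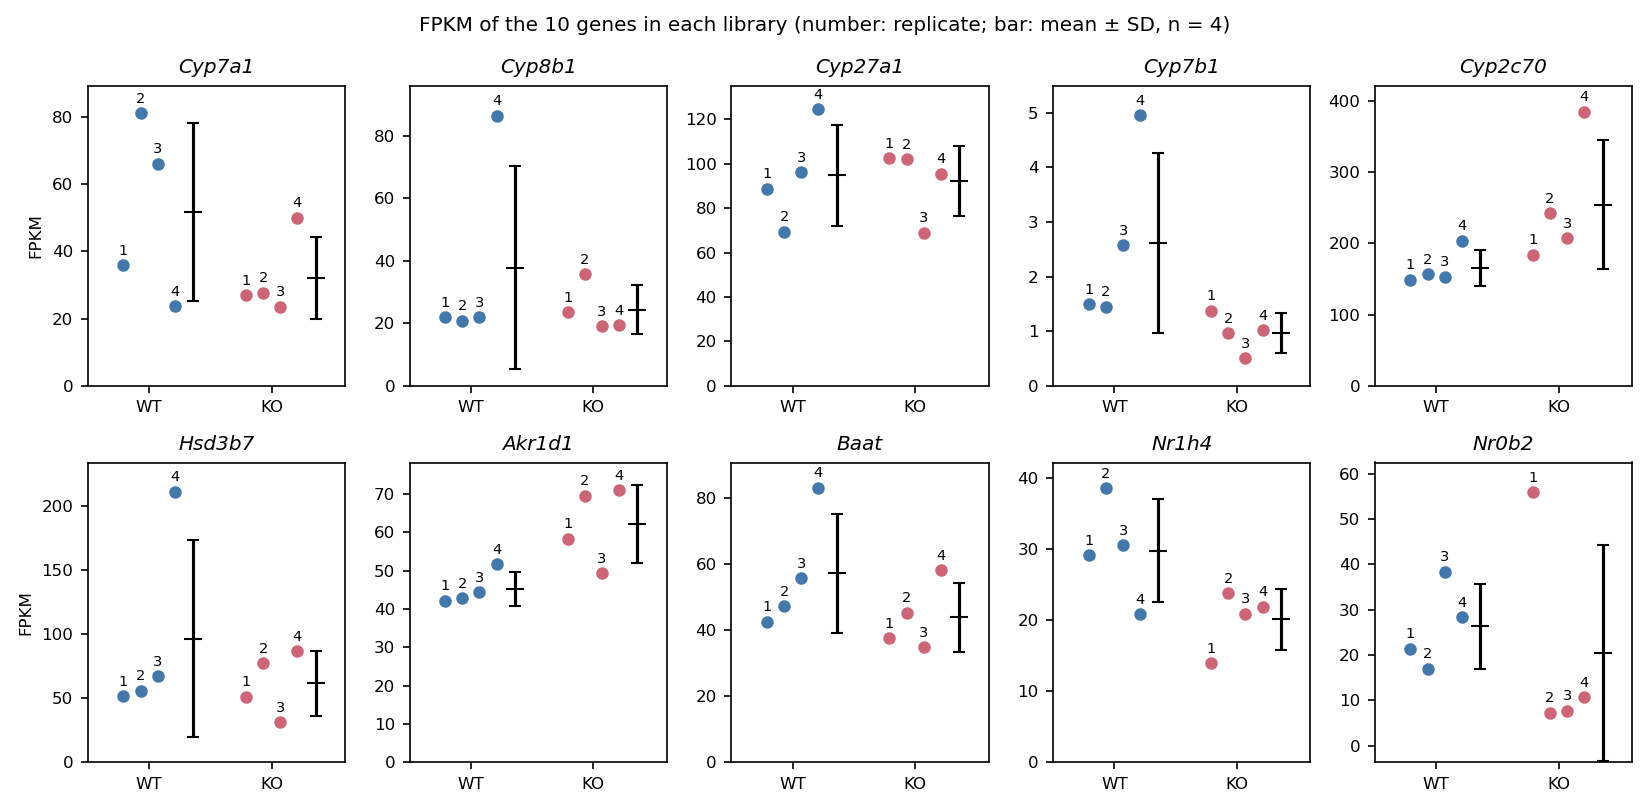
FPKM of each of the 10 genes (vertical axes, a scale of its own per panel) in the 4 WT (blue) and 4 KO (red) libraries, with the replicate number above each point and the mean ± SD (n = 4) in black. WT 4 stands far above WT 1 to 3 for Cyp8b1 (86.5 against 20.9 to 22.1 FPKM) and Hsd3b7, and KO 1 far above the other KO libraries for Nr0b2 (56.0 against 7.30 to 10.7 FPKM).

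Cyp7a1 (ENSMUSG00000028240, GRCm38 chromosome 4, 6265612 to 6275633), the rate-limiting enzyme, was at 35.8, 81.1, 66.1 and 23.8 FPKM in WT 1 to 4 and at 27.0, 27.7, 23.6 and 50.03 FPKM in KO 1 to 4. WT 2 and WT 3 were the highest libraries, while WT 4 lay among the low KO values and KO 4 above WT 1, so the groups overlapped. The WT mean was 51.7 ± 26.5 FPKM and the KO mean 32.1 ± 12.1 FPKM (SD, n = 4 in both), a log2 change of -0.58 ± 0.39 (SE, limma adjusted p = 0.736). Without WT 4 the change was -0.89, the most negative value among the alternatives tried, with a limma adjusted p of 0.379, and without WT 2 it was -0.31 (limma adjusted p = 0.884).

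Cyp8b1 (ENSMUSG00000050445, chromosome 9, 121914356 to 121916305), a single-exon gene that sets the share of cholic acid, showed a different arrangement. Its level was 22.1, 20.9 and 21.99 FPKM in WT 1 to 3 and 86.5 FPKM in WT 4, against 23.6, 35.8, 19.1 and 19.4 FPKM in KO 1 to 4. WT 1 to 3 were nearly equal (21.7 ± 0.628 FPKM, SD, n = 3) and lay inside the KO range, and WT 4 exceeded all other libraries. The change of -0.36 ± 0.44 (SE, limma adjusted p = 0.889) turned to 0.12 without WT 4 (limma adjusted p = 0.933), so its sign rests on that library.

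The level of Cyp8b1 relative to Cyp7a1 within a library does not depend on how the library was scaled. It was 0.616, 0.258, 0.333 and 3.64 in WT 1 to 4 and 0.874, 1.29, 0.810 and 0.387 in KO 1 to 4. Cyp7a1 was the more abundant of the pair in WT 1 to 3, KO 1, KO 3 and KO 4, and Cyp8b1 in WT 4 and KO 2. On the log2 scale the ratio was -0.59 ± 1.72 in the WT and -0.38 ± 0.73 in the KO group (SD, n = 4 in both), and -1.41 ± 0.64 in WT 1 to 3 (n = 3). WT 4 thus combined the lowest Cyp7a1 of the WT group with the highest Cyp8b1 of all libraries.

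In the alternative pathway, Cyp27a1 (ENSMUSG00000026170, chromosome 1, 74713574 to 74737892), the mitochondrial sterol hydroxylase, was at 88.7, 69.3, 96.1 and 124.5 FPKM in WT 1 to 4 and 102.6, 102.0, 68.9 and 95.5 FPKM in KO 1 to 4. The groups covered almost the same range, and the change of -0.02 ± 0.22 (SE, limma adjusted p = 0.990) took either sign across the alternatives, from -0.16 to 0.12. Cyp27a1 had the smallest change of the 10 genes.

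Cyp7b1 (ENSMUSG00000039519, chromosome 3, 18071950 to 18243338), the oxysterol hydroxylase of this route, was by far the least abundant of the 10. It was at 1.498, 1.45, 2.57 and 4.95 FPKM in WT 1 to 4 and at 1.38, 0.961, 0.506 and 1.02 FPKM in KO 1 to 4. The closest libraries of the 2 groups were KO 1 and WT 2, and WT 4 stood highest. The WT mean was 2.62 ± 1.64 FPKM and the KO mean 0.968 ± 0.359 FPKM (SD, n = 4 in both). The log2 change was -0.80 ± 0.30 (SE, limma adjusted p = 0.389). The exact permutation p of Cyp7b1, 0.0286, is the smallest that groups of this size can give. Any gene whose groups do not overlap reaches it, so it only restates the separation and is no further evidence. Without WT 4 the change was -0.53 (limma adjusted p = 0.460), and at this low level it also moved with the pseudocount, to -1.24 with 0.1 FPKM and -0.33 with 5 FPKM (limma adjusted p = 0.367 and 0.454). Its values rest on few reads, about 15.01 in the lowest and 133 in the highest library when taken over the annotated exons. The KO mean of Cyp7b1 was below the minimum mean of 1 FPKM, which the gene passed only through the WT libraries. With no filter its limma adjusted p was 0.466. Cyp7b1 is known as a male-biased gene of mouse liver. Of 6 tested male-biased genes outside the 10, Mup20 was the 1 that passed, being higher in KO (log2 change 2.08, limma adjusted p = 0.00295). The changes of these 6 were positive for 4 and negative for 2, with a median of 0.41. The negative ones were Mup7 (-1.75, limma adjusted p = 0.513) and Slco1a1 (-1.39, limma adjusted p = 0.519). Among 9 female-biased genes 0 passed, with 4 positive and 5 negative changes and a median of -0.06. Of these 9, Cyp3a41a had the smallest p (log2 change -3.40, limma adjusted p = 0.140).

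Hsd3b7 (ENSMUSG00000042289, chromosome 7, 127800604 to 127803802), the hydroxysteroid dehydrogenase that acts next in both routes, was at 51.8, 56.0, 67.3 and 211.1 FPKM in WT 1 to 4 and at 51.3, 77.3, 31.2 and 86.8 FPKM in KO 1 to 4. WT 4 was again the highest of all libraries, and the other 3 WT libraries lay inside the KO range. The change was -0.48 ± 0.47 (SE, limma adjusted p = 0.854) with all libraries and -0.02 without WT 4 (limma adjusted p = 0.993). The value is uncertain in one respect, since a protein-coding gene model on the same strand shares 1717 exon bases with Hsd3b7, and a transcript on the opposite strand, 9430064I24Rik, shares 1729. The first was at 20.3, 22.6, 24.9 and 72.7 FPKM in WT 1 to 4, with the same high library, and 9430064I24Rik at 7.89, 9.28, 9.71 and 28.7 FPKM. The use of strand in the counting is not given in the sources used here, so reads of these 3 features cannot be told apart.

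Akr1d1 (ENSMUSG00000038641, chromosome 6, 37530173 to 37568815), the reductase that gives bile acids their bent ring structure, had the tightest WT values of the 10 genes. They were 42.2, 42.9, 44.4 and 51.7 FPKM in WT 1 to 4 (coefficient of variation 9.70%), against 58.3, 69.6, 49.4 and 71.0 FPKM in KO 1 to 4. Only WT 4 reached above the lowest KO library, KO 3. The means were 45.3 ± 4.39 and 62.1 ± 10.2 FPKM (SD, n = 4 in both), a log2 change of 0.44 ± 0.17 (SE, limma adjusted p = 0.428). The change was positive in all 20 alternatives, between 0.32 and 0.54.

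Cyp2c70 (ENSMUSG00000060613, chromosome 19, 40153353 to 40187333), the muricholic acid enzyme, was the most abundant of the 10 in both groups. It was at 149, 157, 153 and 204 FPKM in WT 1 to 4 and at 184, 242, 207 and 385 FPKM in KO 1 to 4. The highest library was KO 4, and the groups overlapped because WT 4 exceeded KO 1. The means were 166 ± 25.5 and 254 ± 90.1 FPKM (SD, n = 4 in both), a log2 change of 0.57 ± 0.24 (SE, limma adjusted p = 0.486), which was positive in all 20 alternatives and fell to 0.35 without KO 4 (limma adjusted p = 0.619). Cyp2c70 belongs to a large gene family, and reads could be shared with similar copies.

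The windows of Cyp2c70 and Cyp8b1 both hold CAAAGTCCA, a sequence chosen after the windows were read. Both genes were among the 7 of the 10 in which WT 4 was the highest WT library, against 44.7% of all genes tested. Cyp27a1, Hsd3b7 and Akr1d1 were also among these 7, and their windows hold no CAAAGTCCA. A part of this sequence in the WT 4 values was not tested. Relative to Cyp8b1, Cyp2c70 was at 6.75, 7.50, 6.97 and 2.35 in WT 1 to 4 and at 7.78, 6.77, 10.8 and 19.9 in KO 1 to 4. The ratio in WT 4 was the lowest and that in KO 4 the highest of the 8.

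Baat (ENSMUSG00000039653, chromosome 4, 49489422 to 49506557), the conjugating enzyme, was at 42.6, 47.3, 55.7 and 83.1 FPKM in WT 1 to 4 and at 37.5, 45.3, 34.8 and 58.1 FPKM in KO 1 to 4. WT 4 and KO 4 were the high libraries of their groups, and KO 2 and KO 4 lay above the lowest WT library. The change of -0.35 ± 0.25 (SE, limma adjusted p = 0.756) was -0.16 without WT 4 (limma adjusted p = 0.903).

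**Figure D2:**
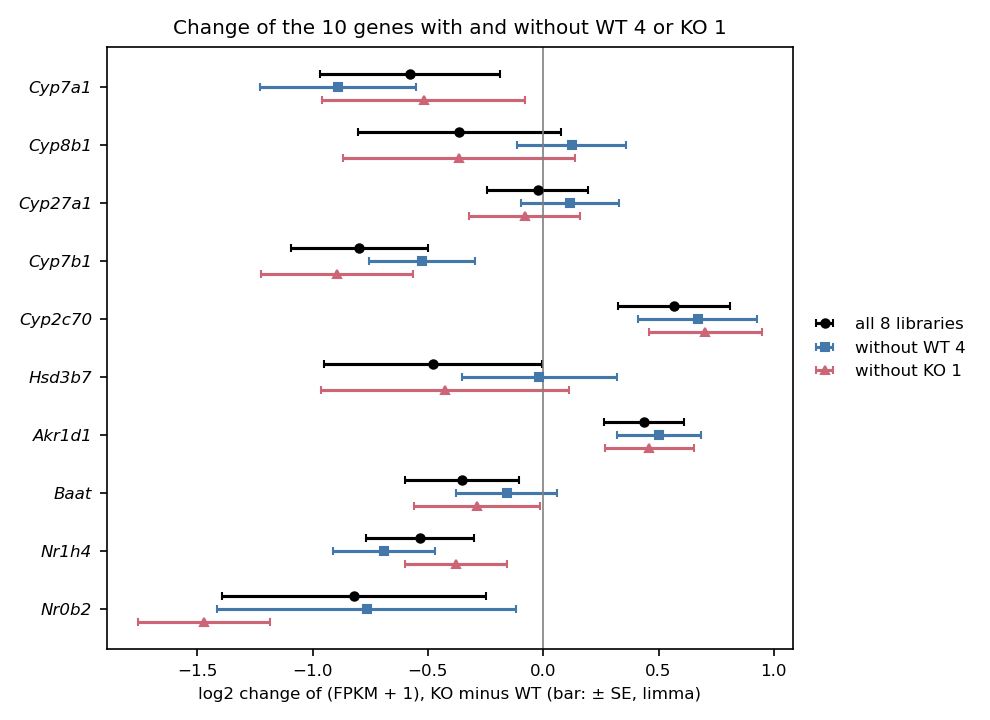
Log2 change of (FPKM + 1), KO minus WT (horizontal axis), with its SE (bars, limma) for each of the 10 genes with all 8 libraries (black), without WT 4 (blue) and without KO 1 (red). Leaving out WT 4 moves Cyp8b1 from -0.36 to 0.12 and Hsd3b7 from -0.48 to -0.02, and leaving out KO 1 moves Nr0b2 from -0.82 to -1.47.

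Nr1h4 (ENSMUSG00000047638, chromosome 10, 89454234 to 89533585), the FXR gene, was at 29.2, 38.5, 30.6 and 20.8 FPKM in WT 1 to 4 and at 14.0, 23.8, 20.9 and 21.9 FPKM in KO 1 to 4. WT 1 to 3 lay above every KO library and WT 4 among them. The means were 29.8 ± 7.24 and 20.1 ± 4.28 FPKM (SD, n = 4 in both), a log2 change of -0.54 ± 0.23 (SE, limma adjusted p = 0.491). It was negative in all 20 alternatives, from -0.78 to -0.38.

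Nr0b2 (ENSMUSG00000037583, chromosome 4, 133553376 to 133556536), the SHP gene and a direct FXR target, was at 21.4, 17.0, 38.4 and 28.4 FPKM in WT 1 to 4. KO 1 held 56.0 FPKM, whereas KO 2 to 4 held 7.30, 7.67 and 10.7 FPKM. KO 1 was therefore the highest of all 8 libraries, while the other 3 KO libraries were the lowest. The means were 26.3 ± 9.32 and 20.4 ± 23.8 FPKM (SD, n = 4 in both), and the log2 change was -0.82 ± 0.57 (SE, limma adjusted p = 0.754). Without KO 1 the KO mean was 8.54 ± 1.85 FPKM (SD, n = 3) and the change -1.47, with a limma adjusted p of 0.0916, the lowest of any of the 10 genes in any alternative tried. The call was thus not reached with or without KO 1, and without KO 2 the change was -0.54 (limma adjusted p = 0.911). Nr0b2 lies on the same chromosome as Arid1a, and 122471 bases separate the 2 genes.

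KO 1 also had the lowest Nr1h4 value of the 8 libraries, so the FXR gene and its target Nr0b2 stood at opposite ends in that library. Over all genes tested, KO 1 was the lowest KO library for 40.1% and the highest for 15.7%. A lowest KO value in KO 1 is thus common and not particular to these genes. Of the FXR targets outside the 10, those with their highest KO value in KO 1 were Akr1b7 (5.404 FPKM against 2.18 to 3.84 FPKM in the other KO libraries), Mafg, a repressor induced by FXR (22.8 FPKM in KO 1, 6.27 to 9.50 FPKM in the other KO libraries), and Pltp, the phospholipid transfer protein gene (81.7 FPKM against 17.1 to 39.1 FPKM). Apoc2 (171 FPKM against 215 to 388 FPKM) and Fetub (96.8 FPKM against 100.02 to 142.5 FPKM) had their lowest KO value there, and the other tested targets neither. Cyp7a1 at 27.0 FPKM and Cyp8b1 at 23.6 FPKM in KO 1 lay within the range of the other 3 KO libraries. The library with the highest Nr0b2 value thus held no extreme value of either gene.

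Several genes separated the groups once 1 library was set aside. Without WT 4, Cyp2c70 and Akr1d1 were higher and Cyp7b1 and Nr1h4 lower in KO with no overlap (2 and 2 of 10), against 5.97% and 4.85% of all genes. Without KO 1, Cyp2c70 was higher and Cyp7b1 and Nr0b2 lower (1 and 2 of 10), against 5.15% and 4.11%. Without both, 2 were higher and 3 lower, against 10.3% and 6.41%. Still, 0 of the 10 passed the adjusted threshold in any of these fits, and the libraries were chosen after their values were seen. Cyp7b1, which is in each of these counts, passed the minimum mean of 1 FPKM only through the WT libraries.

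**Figure D3:**
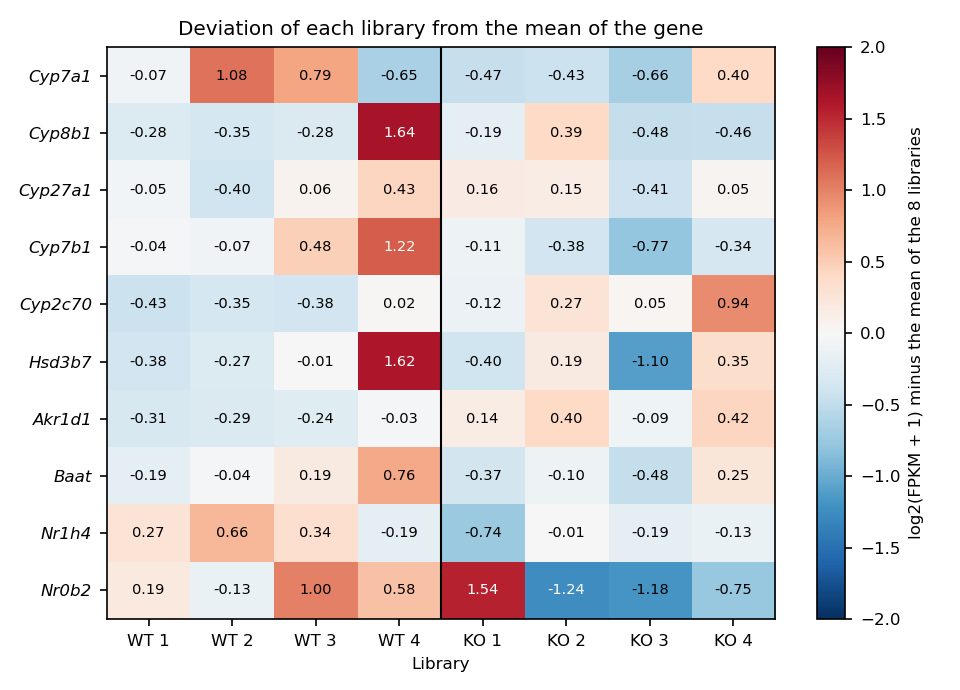
Difference of log2(FPKM + 1) from the mean of the 8 libraries for each of the 10 genes (rows) in each library (columns, the 4 WT libraries left of the line); red is above and blue below the mean. WT 4 deviates by 1.64 for Cyp8b1 and 1.62 for Hsd3b7 but by -0.65 for Cyp7a1, and KO 1 by 1.54 for Nr0b2.

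Several of the 10 genes had their extremes in the same libraries. WT 4 was the highest WT library for 7 (Cyp8b1, Cyp27a1, Cyp7b1, Cyp2c70, Hsd3b7, Akr1d1 and Baat) and the lowest for 2 (Cyp7a1 and Nr1h4), while it was highest for 44.7% of all genes tested and lowest for 18.8%. KO 3 was the lowest KO library for 7 (Cyp7a1, Cyp8b1, Cyp27a1, Cyp7b1, Hsd3b7, Akr1d1 and Baat) and highest for 0, against 22.5% and 18.8% of all genes. Cyp8b1, Cyp27a1, Cyp7b1, Hsd3b7, Akr1d1 and Baat were in both of these sets. KO 4 was the highest KO library for 5 (Cyp7a1, Cyp2c70, Hsd3b7, Akr1d1 and Baat), against 45.5% of all genes. WT 4 also differed in clock genes, with the output factor Dbp at 0.569 FPKM against 22.6 to 49.3 FPKM in WT 1 to 3, and Nfil3, a repressor that binds the same D-box, at 11.5 FPKM against 2.90 to 4.44 FPKM. Cyp7a1 is known for a daily rhythm, the labels give no time of collection, and the part of time of day in these values was not tested.

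By level, Cyp2c70 came first in both groups and Cyp7b1 last. In WT the order of means was Cyp2c70, Hsd3b7, Cyp27a1, Baat, Cyp7a1, Akr1d1, Cyp8b1, Nr1h4, Nr0b2 and Cyp7b1. Every neighbouring pair overlapped in range except Nr0b2 and Cyp7b1. In KO, Cyp2c70 also stood clear of the next gene, Cyp27a1, and Nr1h4 clear of Cyp7b1, whereas the 8 genes from Cyp27a1 to Nr1h4 overlapped from each to the next. Among the 11266 genes tested, Cyp2c70 ranked between 130 and 259 in the 8 libraries, Cyp7a1 between 430 and 1637, and Cyp7b1 between 5509 and 11051.

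The genes nearest in pattern were sought among 4456 genes with a mean of at least 5 FPKM, by Pearson correlation of log2(FPKM + 1) over the 8 libraries. The highest value was chosen each time from all of these, so it is a description only. Among those nearest to Cyp7a1 were Gsk3b (r = 0.94) and Srebf1 (0.88), and nearest to Nr0b2 were Arl4d (0.94), Onecut2 (0.93) and H2-Q6 (0.91). Nearest to Cyp7b1 were Sec14l2 (0.98), Kdm2a (0.97) and Mup5 (0.93), the last at 0.82 without WT 4, and Srebf1 with Cyp7a1 was at 0.79 without WT 2. For Cyp8b1 they were Aaed1 (0.97), Map3k11 (0.96) and the lipid droplet coat gene Plin2 (0.95), which rest in part on WT 4, since without it r was 0.86, 0.83 and 0.75.

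The surrounding pathway was described with lists of genes chosen for their roles. Of 17 other synthesis enzymes and cofactors 16 were tested and 0 passed the adjusted threshold (2 at an unadjusted p under 0.05; median change -0.11). The smallest p belonged to Akr1c6, a hydroxysteroid dehydrogenase gene, at 199, 183, 227 and 404 FPKM in WT 1 to 4 and 94.5, 178, 56.3 and 140 FPKM in KO 1 to 4 (log2 change -1.15, limma adjusted p = 0.290). Its groups did not overlap, although KO 2 lay just below WT 2, and it has close copies. Cyp39a1, which acts on a further oxysterol, averaged 11.1 ± 3.12 FPKM in the WT and 5.67 ± 2.51 FPKM in the KO group (SD, 4 libraries each; limma adjusted p = 0.332).

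Of 18 regulators of Cyp7a1 and Cyp8b1, 0 passed the threshold (2 at an unadjusted p under 0.05; median -0.07). Hnf4a was at 75.0 to 98.8 FPKM in the WT and 71.7 to 97.4 FPKM in the KO libraries, and Nr5a2 at 15.4 to 26.4 and 11.2 to 24.1 FPKM, so both activators covered nearly the same range in the 2 groups. Fgfr4 and Klb, the receptor and coreceptor for the intestinal signal FGF15, had changes of -0.14 and -0.03. Prox1, a corepressor of Cyp7a1, had the smallest p, at 34.9, 37.1, 32.3 and 26.9 FPKM in WT 1 to 4 and 12.1, 21.9, 23.2 and 25.3 FPKM in KO 1 to 4. The 4 KO libraries were the 4 lowest, but the change of -0.68 ± 0.24 (SE) did not pass (limma adjusted p = 0.349).

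**Figure D4:**
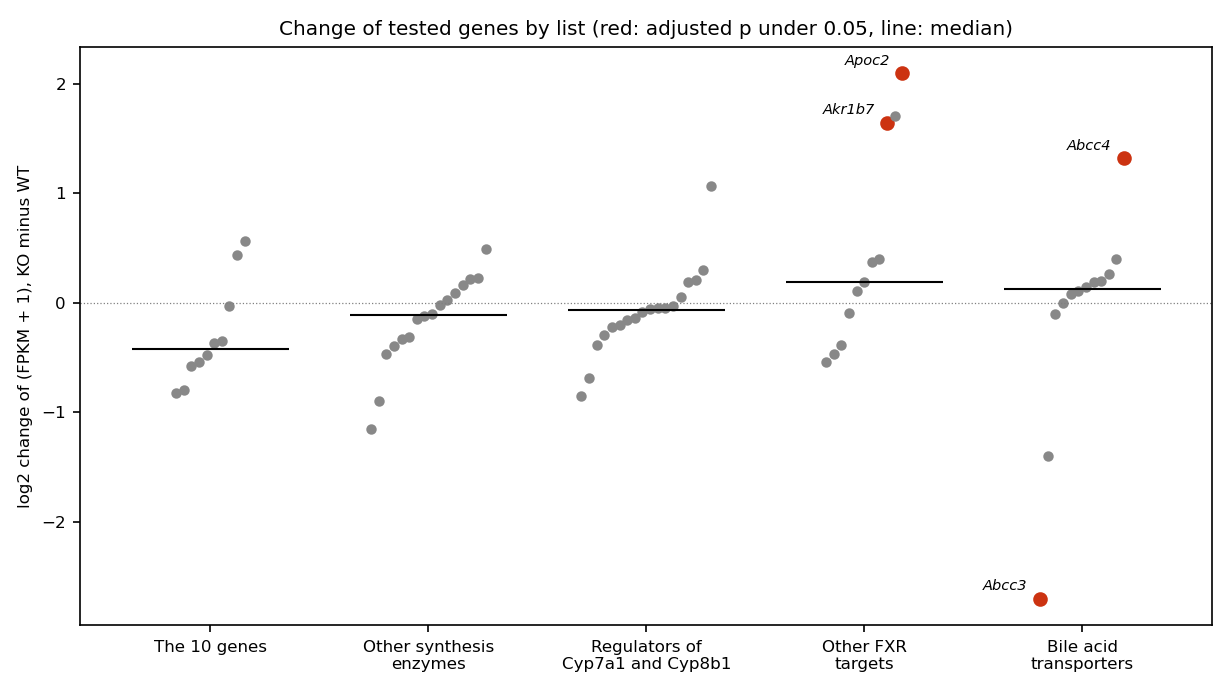
Log2 change of (FPKM + 1), KO minus WT (vertical axis), of each tested gene in 5 lists (horizontal axis, genes sorted by change); red points passed the limma adjusted threshold, grey points did not, and lines are medians. Akr1b7, Apoc2 and Abcc4 lie above 0 and Abcc3 below among the red points, and the 10 synthesis and FXR genes hold none.

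FXR targets outside the 10 genes gave 2 called genes, both higher, among 11 tested of 14 (0 lower; 4 at an unadjusted p under 0.05; median 0.19), against 0.408% of all genes called higher. Akr1b7, an aldo-keto reductase gene, was at 0.793, 0.489, 0 and 0.376 FPKM in WT 1 to 4 and at 5.404, 3.84, 2.54 and 2.18 FPKM in KO 1 to 4 (log2 change 1.64 ± 0.27, SE, limma adjusted p = 0.0297). Its call was lost in 12 of 19 alternatives, with a limma adjusted p of up to 0.108. The mean of Akr1b7 was 0.414 FPKM in the WT and 3.49 FPKM in the KO group. It thus passed the minimum mean of 1 FPKM only through the KO libraries, and with no filter its limma adjusted p was 0.09997. The count of 2 called targets is therefore a description only. Apoc2, which encodes the cofactor of lipoprotein lipase, rose by 2.09 ± 0.32 on the log2 scale (SE, limma adjusted p = 0.0217, and up to 0.0860 in the alternatives, 6 of 20 of which lost the call).

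The remaining targets had changes of both signs. Abcb11, the canalicular bile salt export pump and a classical FXR target, was at 71.4, 70.3, 54.8 and 118 FPKM in WT 1 to 4 and at 83.8, 72.7, 67.5 and 106 FPKM in KO 1 to 4, with overlapping groups (log2 change 0.10, limma adjusted p = 0.956). Fetub, a hepatocyte secretory gene induced by FXR, had a change of -0.47 ± 0.20 (SE, limma adjusted p = 0.465), and Pltp of 1.70 ± 0.47 (SE, limma adjusted p = 0.180). Both subunits of the basolateral exporter, Slc51a and Slc51b, were below the minimum for testing.

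Among 12 tested bile acid transporters, Abcc3 fell by 2.70 on the log2 scale and Abcc4 rose by 1.32 (limma adjusted p = 0.00817 and 0.0257), against 0.355% of all genes lower and 0.408% higher. The call of Abcc4 was lost in 11 of 19 alternatives, with a limma adjusted p of up to 0.122. Its change ran from 0.47 with a pseudocount of 5 FPKM to 2.53 with 0.1 FPKM. Abcc4 averaged 0.422 FPKM in the WT and 2.50 FPKM in the KO group. It too passed the minimum mean of 1 FPKM only through the KO libraries (limma adjusted p = 0.0790 with no filter). The ileal and biliary bile acid transporter gene Slc10a2, which entered as an intestinal marker and is named after its values were seen, fell from 8.43, 4.90, 7.46 and 6.05 FPKM in WT 1 to 4 to 1.71, 1.40, 1.23 and 2.64 FPKM in KO 1 to 4 (log2 change -1.49 ± 0.22, SE, limma adjusted p = 0.0176). The groups were well apart, although the call was lost in 8 of 19 alternatives, with a limma adjusted p of up to 0.0876. Of the other intestinal markers, Vil1 was at most 0.0592 FPKM in any library and Fabp2, a fatty acid binding protein gene, was at 10.5 to 21.1 FPKM in the WT and 10.5 to 25.0 FPKM in the KO libraries. The part of intestinal tissue in these values was not tested.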

How the data were processed

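The authors deposited 1 table of FPKM values for 8 liver RNA libraries. Per the labels' protocols, Trizol and a miRNeasy kit (Qiagen) were used for the RNA and Nugen reagents for the libraries. The submitters' processing notes name TopHat, edgeR and mm10, without roles or versions. Which program gave FPKM, and whether it used strand, is not given in the sources used here.

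Columns were matched to samples by title. The unscaled log2(FPKM + 1) values of 11266 genes (mean of at least 1 FPKM) were compared with limma 3.58.1 (R 4.3.3; intensity trend, two-sided, Benjamini-Hochberg threshold 0.05). Fold changes on this scale understate the change of low genes. FPKM divides by the reads of a library, and the 10 most abundant genes held 40.9 to 50.4% of it. Depth was recovered from 12059 genes with a single annotated transcript of at least 400 nt, with 56.2 to 60.9% of low values within 0.1 of whole reads (20% by chance), so depths are estimates and no count test was run. Coordinates are from GENCODE M21 on GRCm38 (mm10), which held 99.4% of the gene IDs. No column was left unmatched, and no 2 libraries were identical.

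On simulated data for this comparison (11266 genes) the fit called 44 of 100 genes changed by 1 and 90 of 100 changed by 2 on the log2 scale, with 10 false among 144 calls. The simulated noise was normal and independent for each gene, with no library that departs in many genes. These rates therefore may not hold for the real libraries. The members and gene lists were chosen with earlier results of these data known, and the promoter sequences searched were chosen after their windows were read. Named genes are the 10 members, Arid1a, the called genes of each other list or else that with the smallest p, and the 3 genes nearest in pattern to each of 4 members, of which 1 is not reported here. Slc10a2, Cyp39a1, Pltp, Mafg, Nfil3, Dbp, Fetub, Nr1i3, Hnf4a, Nr5a2, Fgfr4, Klb and Abcb11 were added for their role or after their values were seen. In the clock list (13 tested) and the sex chromosome list (1 tested) 0 genes passed, Hlf (limma adjusted p = 0.206) and Xist (0.985) having the smallest p. Alternatives were pseudocounts of 0.1 and 5 FPKM, no filter, a minimum of 5 FPKM, median ratio scaling, quantile normalization, scaling to equal sums, array weights, limma with no trend, a block for the replicate number, and each library left out in turn. WT 4 with KO 2 and WT 4 with KO 1 were left out together as alternatives added after the data were seen. Plots used Python 3.11.15 with matplotlib 3.10.9.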

Additional observations from a re-analysis of the deposited data

Results flagged for a closer look

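Among 74 groups of 4 libraries examined (each named gene and 3 ratios, in WT and in KO), 4 held a library whose distance from the nearest of the others was too large a part of the group's range on the log2 scale (above Dixon's 95% critical value); chance gives about 1 in 20. WT 4 stood apart in Cyp8b1, at 86.5 FPKM against 20.9 to 22.1 FPKM in WT 1 to 3, and in Cyp2c70, at 204 FPKM against 149 to 157 FPKM. WT 4 also stood apart in the log2 ratio of Cyp2c70 to Cyp8b1, at 1.24 against 2.75 to 2.91, which shares the Cyp8b1 values. KO 2 stood apart in Nr1i3, the gene of the xenobiotic receptor CAR, at 76.7 FPKM against 25.0 to 29.2 FPKM in the other KO libraries and 56.2 to 82.2 FPKM in WT. Without KO 2 the change of Nr1i3 was -1.21 and passed (limma adjusted p = 0.0289), against -0.85 with all libraries (limma adjusted p = 0.417). KO 2 is the library singled out by this same gene, so the call without it depends on the outcome and supports nothing. The values of Nr0b2 in KO 1 and of Hsd3b7 in WT 4 did not reach the same limit on the log2 scale.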

How the results depend on the processing

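In all 20 alternatives 0 of the 10 bile acid genes passed the threshold, and Cyp7a1, Cyp7b1, Cyp2c70, Akr1d1, Baat, Nr1h4 and Nr0b2 kept the sign of their change in each alternative that tested them. Cyp8b1 ranged from -0.56 to 0.12 with 1 library left out, being above 0 only without WT 4, and turned to 0.12 without WT 4 and KO 1, and Hsd3b7 to 0.036 without WT 4 and KO 1. Cyp27a1, near 0, turned to 0.0094 with array weights, to 0.062 without WT 4 and KO 2, to 0.060 without WT 4 and KO 1, and lay between -0.16 and 0.12 when 1 library was left out. Dbp turned to -0.33 without WT 4 and KO 2, and ranged from -0.076 to 1.59 with 1 library left out. Xist turned to 6.54e-04 with quantile normalization, and ranged from -0.21 to 0.065 with 1 library left out. Without WT 4 and KO 1, Hnf4a turned to 0.042, Nr5a2 to 0.10 and Fgfr4 to 0.053. Abcb11 turned to -0.0075 with equal sums and Klb to 0.0070 with quantile normalization, and with 1 library left out Hnf4a ranged from -0.17 to 0.0023, Klb from -0.15 to 0.083 and Abcb11 from -0.048 to 0.32. Over all genes 86 were called in the comparison itself, 54 with a pseudocount of 5 FPKM, 27 with a minimum of 5 FPKM (fewer genes tested) and 36 to 134 with 1 library left out. With equal sums the median change of all genes moved from -0.03 to -0.12, and 36 genes were higher and 45 lower. The share of calls that were higher was 53.5% in the comparison itself and 67.0% without WT 4 and KO 2.

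With the replicate number as a block 24 genes were called (16 higher, 8 lower), and Abcc3, Abcc4 and Slc10a2 lost their calls (limma adjusted p = 0.0559, 0.118 and 0.0876). The correlations of the deviations of libraries with the same number were 0.10, -0.07, 0.02 and 0.25 for replicates 1 to 4. WT 1, WT 3 and WT 4 correlated best with the KO library of their own number and WT 2 with KO 1, a hint from the data and not from the design. The labels tie the numbers to no animal, litter or day, so they were not taken as pairs. With pseudocounts of 0.1 and 5 FPKM the change of Akr1b7 was 3.09 and 0.64, and with 5 FPKM that of Slc10a2 was -0.79 and that of Mup20 1.196. The cause of these differences was not tested. Depth limits Cyp7b1 most, at about 15.01 reads in its lowest library.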
